A study of Mus musculus with 10 samples.

Results

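Total RNA of embryonic mouse testis was compared between embryonic day E11.5 and embryonic day E18.5 on oligonucleotide arrays (Affymetrix Mouse430_2), with 2 arrays at each stage. The 4 arrays were chosen by the stage in their titles, belong to a time course of 10 arrays over 5 stages, and were all scanned on 1 day. The design text describes independent preparations of testis, so the p-values below measure the spread between preparations. The labels name no genotype, strain or treatment, and from the sources used here it is not known how many embryos were pooled or if mesonephric tissue was dissected away. A probe set of its own was found for 18193 genes, of which 10916 passed a filter on low signal and were tested.

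At E11.5 the mouse gonad is a thin bipotential ridge in which XY supporting cells are just starting to become Sertoli cells, and its germ cells are still dividing and express pluripotency genes. By E18.5 the fetal testis holds closed cords of Sertoli cells around arrested prospermatogonia, with smooth muscle-like peritubular cells, steroid-producing fetal Leydig cells, vessels and connective tissue between the cords. The comparison asks how far transcript levels moved between these ends, and it is described by gene family. Of 71 families examined, 40 held more genes that rose, 22 more that fell and 9 equal numbers. Some genes belong to more than 1 family, and some families held 1 tested gene or none. The lists were chosen with earlier results of these data known, so these numbers only describe the lists.

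In all, 3076 of the 10916 tested genes differed between the stages by limma with an adjusted p under 0.05 (28.2%), with 1871 higher at E18.5 (17.1%) and 1205 lower (11.0%). These shares are the background against which each family count below is to be read. Large changes were mostly rises among these tested genes. A change of more than 1 on the log2 scale, which is a fold of 2, was found for 861 genes that rose and 319 that fell, and a change of more than 2 for 257 that rose and 61 that fell. The median log2 change of the tested genes was 0.02. The filter used the mean over the 10 arrays, of which 2 were from E11.5. Genes high only at E11.5 were therefore less likely to pass it than genes high from E14.5 on. After centring each array on its median, 1391 genes rose and 1212 fell. Both arrays of one stage lay beyond both arrays of the other for each of the 3076 called genes, but also for 6806 of all tested genes (62.3%), so this separation alone says little.

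**Figure D1:**
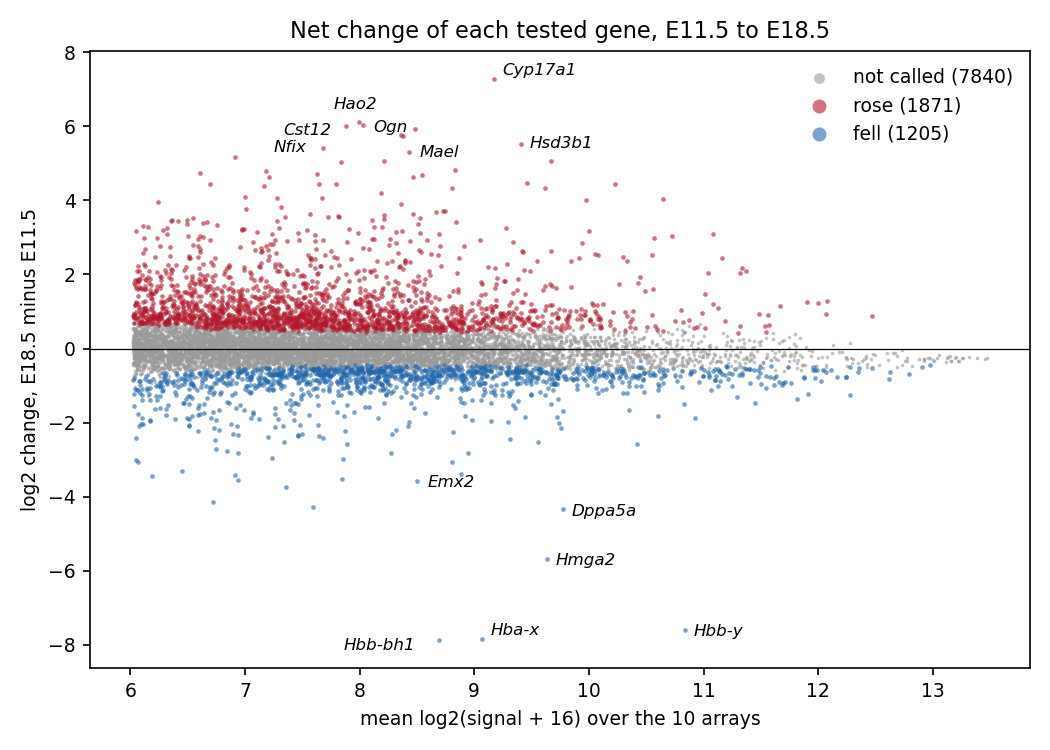
Each point is 1 tested gene, with its mean log2(signal + 16) over the 10 arrays on the horizontal axis and its log2 change from E11.5 to E18.5 on the vertical axis. The 1871 genes that rose are red and the 1205 that fell are blue, and the 3 embryonic globins and Hmga2 lie furthest below the rest.

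Values are deposited linear signals, and log2 changes and folds are differences of log2(signal + 16), which makes the change of dim genes look smaller than it is. The filter level was a signal of 49.1 as a mean over the 10 arrays. Of the genes that rose, 424 had an E11.5 mean under that level, and of those that fell, 103 had an E18.5 mean under it. The files hold no detection calls, so such low signals cannot be told from background. In bulk tissue, fewer cells of a type and less RNA per cell cannot be told apart.

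The 2 arrays of E11.5 correlated with r = 0.965 over the tested genes and the 2 of E18.5 with r = 0.975, against 0.825 to 0.848 between the stages. Setting aside 2% of probe sets at either end left a mean signal of 125 on each of the 10 arrays. As a sign of RNA quality, actin probe sets read 1.84 and 1.57 times as high at the 3' end as at the 5' end on the E11.5 arrays, and 1.87 and 2.62 times on the E18.5 arrays, and its part in the results was not tested. Fluidics modules 1 and 2 processed the E11.5 arrays and modules 3 and 4 the E18.5 arrays, so module and stage cannot be told apart among these 4 arrays.

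The labelled tissue was checked against markers. The summed signal of 7 Sertoli markers was 791 and 855 at E11.5 and 8202 and 11434 at E18.5. That of the 4 fetal Leydig markers with a probe set, of 6, was 273 and 253 at E11.5 and 10897 and 9369.7 at E18.5. Germ cell markers (4 of 5 with a probe set) summed to 1180.0 and 1095 at E11.5 and 1840.3 and 1699 at E18.5. The defining markers of testis were therefore present at E18.5 on both arrays, and the sums of Sertoli and Leydig markers were lower at E11.5. Of the 7 Sertoli markers 6 rose, and Sox9, given below, was the exception. Among other tissues, markers of mesonephric and duct epithelium (4 of 6 with a probe set) summed to 125 and 209 at E11.5 and 93 and 108 at E18.5, and Pax8 was the only one above the filter. Neural markers (3 of 5) summed to 73.4 and 109 and then 142 and 141, skeletal muscle markers (5 of 5) to 123.7 and 116 and then 136 and 144.8, and epididymis markers (3 of 4) to 72.9 and 64.5 and then 68.3 and 78.1. Red cell, adrenal and hepatocyte markers differed between the stages by more than this and are given below with the families they touch.

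**Figure D2:**
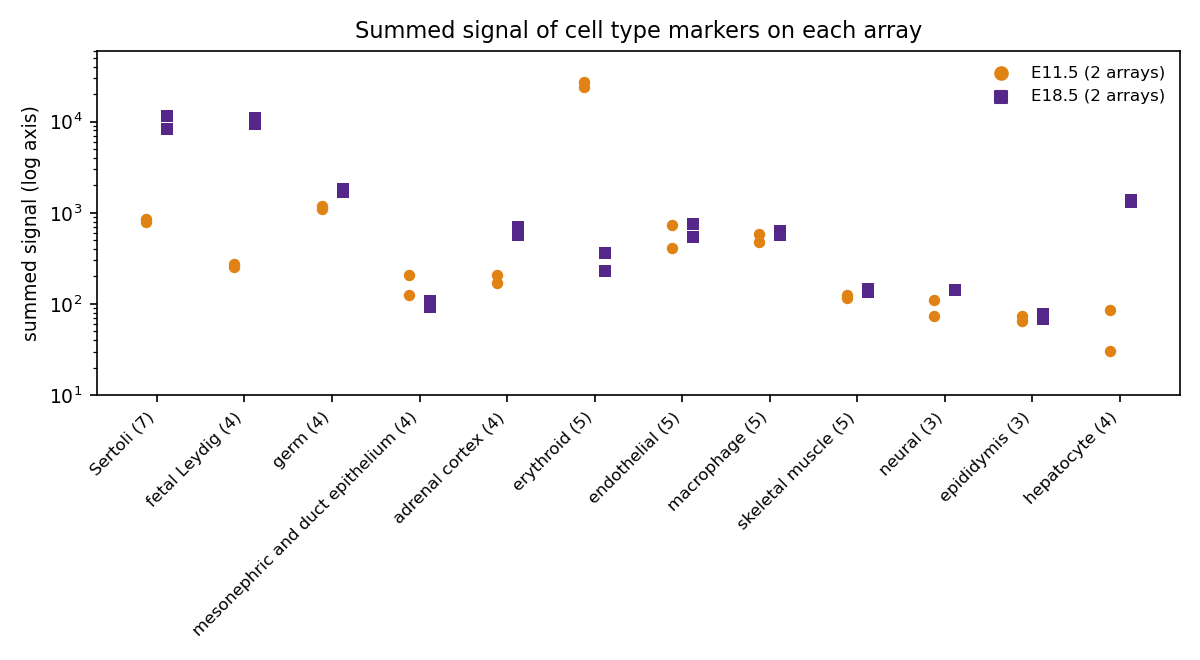
Points show, on a log axis, the summed signal of the markers of each cell type on each of the 4 arrays, with the number of markers that had a probe set in parentheses. Sertoli, fetal Leydig, germ, adrenal, hepatocyte, neural and skeletal muscle sums were higher on both E18.5 arrays. Erythroid sums and those of mesonephric and duct epithelium were higher on both E11.5 arrays. The endothelial, macrophage and epididymis sums of the stages overlapped.

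Genes of steroid synthesis held the largest rise of all tested genes. Fetal Leydig cells turn cholesterol into androgen with a short chain of enzymes, and those enzymes went from low to among the high signals of the array. Of 20 genes on the list of fetal Leydig cell and steroid synthesis genes, 8 had no probe set of their own and were not analysed here, 1 lay under the filter and 11 were tested. Of these 11, 8 rose and none fell, with a median log2 change of 2.36 against 0.02 for all tested genes. The count of rises was 8 with any 1 of the 4 arrays left out, and 3 of these 8 had an E11.5 mean under the filter level.

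Cyp17a1, the enzyme that makes androgen precursors from progestins, had signals of 6.4 and 6.1 on the 2 arrays of E11.5 and 3862 and 3078 on those of E18.5. Its log2 change of 7.28 ± 0.41 (SE) was the largest rise of the comparison (adjusted p = 2.74e-08), and its E11.5 signals were below the filter level. Cyp11a1, which cleaves the cholesterol side chain, read 67.8 and 86.7 at E11.5 and 2648 and 2606 at E18.5 (28.5-fold, adjusted p = 1.84e-09). Both E18.5 arrays lay far above both E11.5 arrays for each of these enzymes. Hsd3b1, a 3-beta-hydroxysteroid dehydrogenase, went from 68.9 and 46.9 to 3667 and 3054 (46-fold, adjusted p = 6.49e-10). Hsd17b3, which makes testosterone from androstenedione, went from 37.1 and 30.7 to 898 and 915 (a log2 change of 4.21, adjusted p = 6.19e-09). The cell type that carried it cannot be told from bulk tissue. The rises of these synthetic enzymes were larger than those of the supply genes. Star, which carries cholesterol to the inner mitochondrial membrane, read 129.5 and 113 and then 721 and 631 (5.04-fold, adjusted p = 6.91e-07). Scarb1, a lipoprotein receptor that takes up cholesterol esters, read 196 and 174 and then 1586 and 1363 (7.4-fold), and Fdx1, the electron donor of Cyp11a1, rose 5.12-fold. Vcam1, a cell adhesion receptor, rose by a log2 of 1.14, a call lost when its probe sets were averaged.

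The 3 tested genes of the list that were not called were Nr5a1, Cyb5a and Lipe. Nr5a1, which encodes the orphan nuclear receptor SF-1 of gonad and adrenal, had signals of 409 and 669.9 and then 603 and 809. Its stages overlapped, with a log2 difference of 0.40 (adjusted p = 0.323).

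Adrenal cortex genes were examined because adrenal-like steroid cells occur in the fetal testis. Cyp21a1, the 21-hydroxylase of corticosteroid synthesis, went from 47 and 29.6 to 505 and 463 (9.33-fold, adjusted p = 2.11e-07), and Cyp11b1 from 35.7 and 40 to 106 and 71.7, a call lost without E11.5 replicate 1 or E18.5 replicate 1. Mc2r, the adrenocorticotropin receptor, went the other way, from 65.6 and 116 to 44.5 and 9.8, and its call was lost without E11.5 replicate 2 or E18.5 replicate 2. Nr0b1, a nuclear receptor that antagonises SF-1, fell from 297 and 293 to 63.5 and 92.7 (-1.74 on the log2 scale, adjusted p = 2.94e-05). In all, 3 of 5 tested adrenal cortex genes rose and 2 fell, with Hsd3b1 shared with the Leydig list. The 4 adrenal markers with a probe set summed to 168 and 209 at E11.5 and 699 and 570.1 at E18.5. Whether adrenal tissue was included in a preparation was not tested.

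Among 7 tested 17-beta-hydroxysteroid dehydrogenases, 3 rose and 1 fell. Besides Hsd17b3, Hsd17b1 rose from 33 and 52.5 to 772 and 1159.8 (16.6-fold, adjusted p = 4.7e-08). Hsd17b7, a member that also acts in cholesterol synthesis, rose 2.19-fold on the probe set used here, while its 3 probe sets ranged from -0.37 to 1.13 on the log2 scale. The mitochondrial member Hsd17b10 fell from 1796 and 1315 to 1028 and 881, a call lost without E11.5 replicate 1 or E18.5 replicate 2.

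Cholesterol synthesis genes rose with smaller and more even steps. Of 22 members, 19 were tested and 12 rose, none fell, and the median log2 change was 0.59. The count depended on single arrays and on scaling. It was 6 without E18.5 replicate 2, 7 without E18.5 replicate 1, 9 without either E11.5 array, and 7 after centring each array on its median. The smallest adjusted p belonged to Tm7sf2, a sterol reductase (106 and 100.2 to 249 and 271, 2.31-fold, adjusted p = 6.65e-05), and Fdps, which makes farnesyl diphosphate (666 and 663 to 1572 and 1519.6, 2.29-fold, adjusted p = 9.02e-05). Dhcr7, the last enzyme of 1 branch of the pathway, went from 148 and 166 to 458 and 439 (2.69-fold, adjusted p = 0.000202). Nsdhl rose 1.9-fold, and Sqle, the squalene epoxidase, rose 1.5-fold with a call lost without E18.5 replicate 2.

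Promoters of 2 of these genes are shown because the family shares a short sequence. CCAAT, the box bound by the NF-Y factor, was searched on both strands in the 250 bases before each start in RefSeq (GRCm38.p6), where ATTGG is its other strand. It occurred for 16 of the 17 cholesterol synthesis genes with a promoter entry, against 10133 of all 27025 genes (37.5%). All 9 of those that rose held it, and so did all 7 that were not called, so the match did not separate them. In the lines below, the capitals mark the box on either strand, and the stretches lie at chr19:6067851-6068100 (minus strand) for Tm7sf2 and chr7:143829964-143830213 (plus strand) for Dhcr7.
Tm7sf2: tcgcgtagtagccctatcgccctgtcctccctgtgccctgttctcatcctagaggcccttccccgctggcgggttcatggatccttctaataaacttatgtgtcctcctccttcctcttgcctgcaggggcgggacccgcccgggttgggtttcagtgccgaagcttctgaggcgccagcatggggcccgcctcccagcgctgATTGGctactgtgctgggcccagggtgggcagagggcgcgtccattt
Dhcr7: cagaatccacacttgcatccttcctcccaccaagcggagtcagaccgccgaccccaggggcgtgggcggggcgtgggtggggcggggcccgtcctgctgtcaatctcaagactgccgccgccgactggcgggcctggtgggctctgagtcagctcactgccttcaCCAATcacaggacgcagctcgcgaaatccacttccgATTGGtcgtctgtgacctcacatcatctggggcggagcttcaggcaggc
Among fetal Leydig list genes with a promoter entry, 4 of 13 held the CCAAT box. The sequence AAGGTCA, of the type bound by SF-1, was found for none of these 13, for 2 of the 17 cholesterol genes and for 1271 of all genes (4.70%). None of the 4 sequences searched here and below contains another, and a match describes the letters of the window only.

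Glutathione transferases, which conjugate glutathione to lipophilic compounds, split by member. Of 18 tested, 8 rose and 3 fell. Gsta2 went from 13.8 and 23.7 to 810.4 and 951 (26-fold, adjusted p = 7.14e-10) and Gstm6 from 21.5 and 46.5 to 1039.5 and 1482 (26-fold, adjusted p = 3.64e-08). Gstm1 started high, at 715 and 907, and reached 2455 and 3217. The family's median log2 change was 0.18, and 7 members were not called. Of the 3 falls, 1 was called without E11.5 replicate 1 and none without E18.5 replicate 2.

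**Figure D3:**
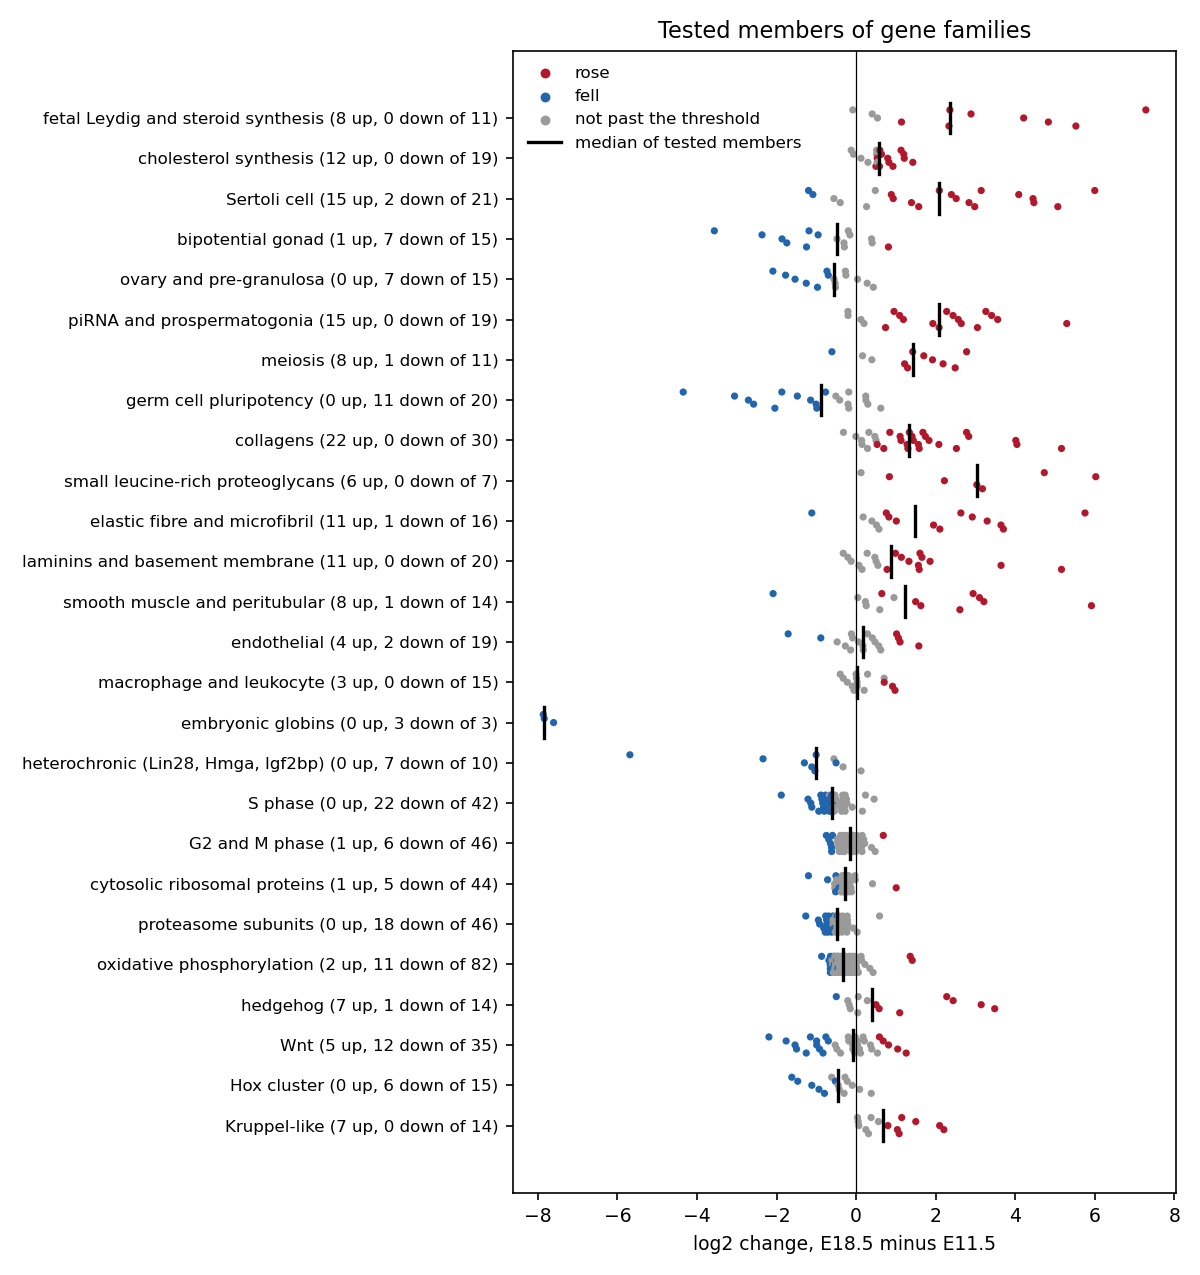
Each point is a tested member of a gene family, placed by its log2 change from E11.5 to E18.5, with red for members that rose, blue for those that fell and grey for those past neither side of the threshold, and the bar at the median of the tested members. Steroid, Sertoli, piRNA, collagen and proteoglycan families lie mostly to the right of 0, and embryonic globin, heterochronic, pluripotency and S phase families to the left.

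Sertoli cell genes mostly rose, with the early regulators Sox9 and Fgf9 among the exceptions. Of 28 members, 4 had no probe set of their own, 3 lay under the filter and 21 were tested, of which 15 rose and 2 fell (1 without E11.5 replicate 2 or E18.5 replicate 1) with a median log2 change of 2.09. Secreted products were among the rises. Cst12, a cystatin-type protease inhibitor, went from 27.8 and 27.5 to 2400.4 and 3206 (63.9-fold, adjusted p = 2.43e-10). Defb19, a beta-defensin of Sertoli cells, went from 54.5 and 80.9 to 2698 and 2824 (33.6-fold, adjusted p = 5.04e-09). Clu, which encodes the secreted chaperone clusterin, went from 168 and 183 to 3486 and 4949 (21.8-fold, adjusted p = 2.1e-08). None of these arrays overlapped between the stages. Ptgds, the prostaglandin D2 synthase, went from 51.9 and 80.6 to 1316 and 2396, and Cst9 from 303 and 291 to 2426 and 2486 (22.1-fold and 7.9-fold).

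Hormones and signals of Sertoli cells followed. Amh, which makes the Müllerian duct regress, had signals of 4.7 and 4.8 at E11.5, far under the filter level, and 222 and 506 at E18.5. Its 2 late arrays differed from each other more than those of most named genes, and the log2 change was 4.09 ± 0.54 (SE, adjusted p = 7.23e-05). Dhh, the hedgehog ligand that signals to the interstitium, read 55.5 and 62.2 and then 542 and 767 (8.84-fold, adjusted p = 4.26e-08). Inha, the inhibin alpha subunit, went from 428 and 484 to 2809 and 3995 (7.15-fold, adjusted p = 3.63e-07). Inhbb, an activin and inhibin beta subunit, rose by a log2 of 0.88, a call lost without E11.5 replicate 1 or E18.5 replicate 2. Fshr, the receptor of follicle-stimulating hormone, rose from 8.8 and 34.1 to 109.6 and 164 (adjusted p = 0.00032).

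Of the tested Sertoli genes that did not rise, 2 fell and 4 were not called. Sox9, the Sertoli fate factor, read 199 and 199 at E11.5 and 101 and 166 at E18.5. Both late arrays were lower, but the difference of -0.56 did not pass the test (adjusted p = 0.0912). Fgf9, a growth factor that acts with Sox9, fell from 112 and 156 to 58.8 and 40 (-1.20, adjusted p = 0.00138), and Etv5, an ETS factor downstream of FGF signals, fell by 1.09 on the log2 scale, a call lost without E11.5 replicate 2 or E18.5 replicate 1. Sry, the Y-linked trigger of testis fate, was under the filter over the 10 arrays and was not tested. On a probe set that may also match other transcripts, its signals were 125 and 148 at E11.5 and 11.8 and 24.8 at E18.5.

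Regulators of the bipotential gonad fell. Of 15 tested, 7 fell and 1 rose (none without E18.5 replicate 2), and the median log2 change was -0.48. The count of falls was 7 with any 1 of the 4 arrays left out. Emx2, a homeobox gene needed for the gonadal ridge, went from 1580.3 and 1114 to 92.9 and 103 (11.8-fold lower, adjusted p = 2.99e-08). Wt1, the zinc finger factor of gonad and kidney, went from 1804 and 1881 to 453 and 542 (3.63-fold lower, adjusted p = 2.55e-06). Gadd45g, a stress-signalling gene needed for timely Sry expression, went from 649 and 509.8 to 95.1 and 103 (5.15-fold lower). Lhx9, a LIM homeobox gene, was still well above the filter level at E18.5, at 1199 and 912 after 2816 and 2037. Not every regulator of this stage fell. Gata4 read 475 and 697 and then 391 and 557 (adjusted p = 0.397), with overlapping stages, and Tcf21 read 3229 and 2392 and then 2697 and 2305 (adjusted p = 0.551).

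Genes that promote ovary fate or mark pre-granulosa cells also ended lower. Of 15 tested, 7 fell and none rose, with a median log2 change of -0.56. The falls numbered 5 without E18.5 replicate 2, and 1 gene rose without E11.5 replicate 2. Wnt4, a ligand of the ovary pathway, went from 440.1 and 448 to 185 and 109 (-1.54 on the log2 scale, adjusted p = 0.000103), and Rspo1, which boosts Wnt signals, from 353 and 289 to 132 and 118 (-1.25, adjusted p = 0.000127). Msx1 went from 201 and 282 to 43.3 and 44.1 and Bmp2 from 172 and 97.6 to 29 and 24.6, both ending under the filter level. Foxl2, a later granulosa cell factor, had overlapping stages at 92.1 and 125 and 102 and 74.5 (adjusted p = 0.419).

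**Figure D4:**
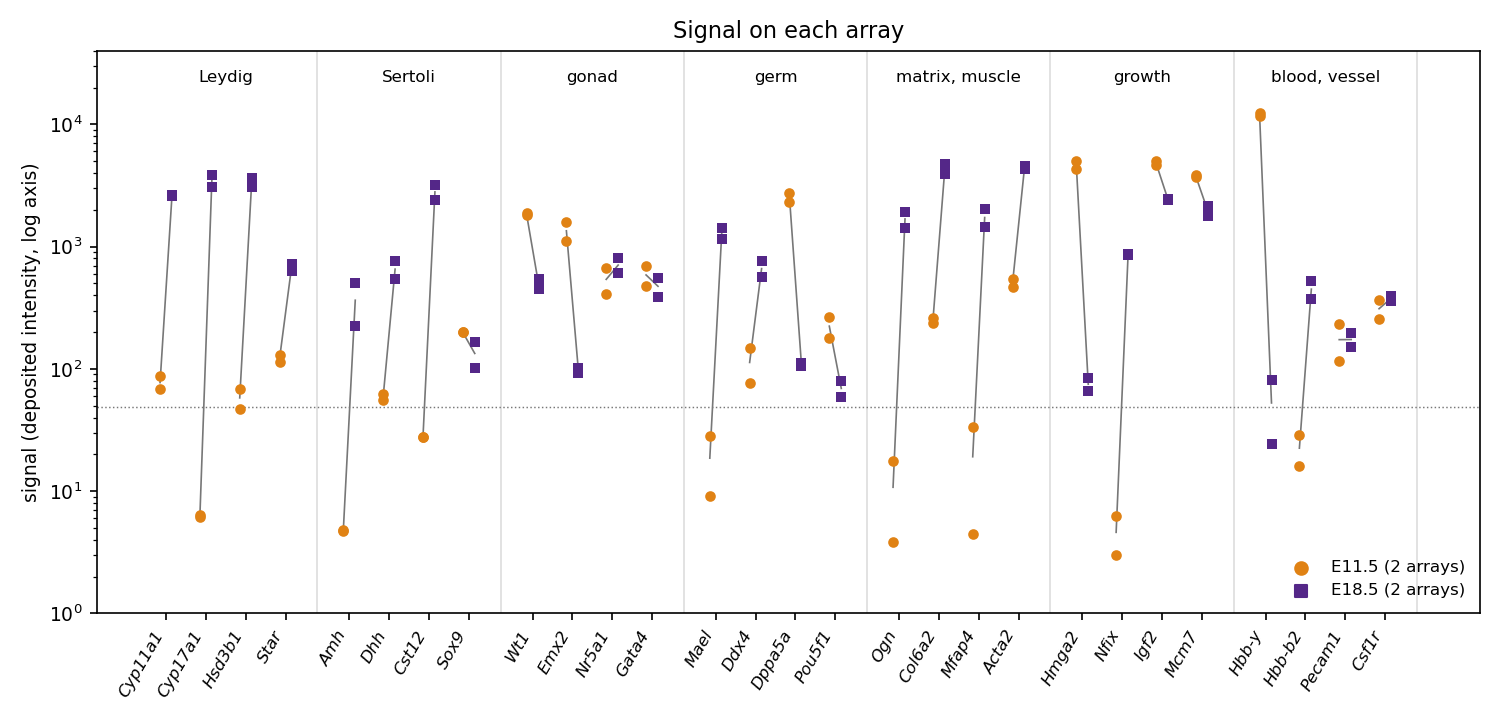
Points show the deposited signal on each of the 2 arrays of E11.5 (circles) and E18.5 (squares) for 28 genes on a log axis, with a line between the stage means and a dotted line at the filter level of 49.1. Signals of Cyp17a1, Amh, Mael, Ogn and Nfix rise from under the dotted line, while those of Sox9, Nr5a1, Gata4, Pecam1 and Csf1r lie close together or overlap.

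Germ cell genes moved in opposite directions by programme. Pluripotency genes of the list fell or were not called. Of 20 tested, 11 fell and none rose, with a median log2 change of -0.88, and the falls numbered 10 or 11 with 1 array left out. Klf4, which rose, was not on this list and is given below with the Krüppel-like factors. Dppa5a went from 2768 and 2297 to 106 and 112 (20.3-fold lower, adjusted p = 6.93e-09). Dppa3, a maternal and primordial germ cell factor, went from 734 and 570.4 to 79.4 and 50.7 (8.31-fold lower, adjusted p = 1.44e-06). Sox2 went from 198 and 275 to 20.5 and 23.9, Nanog from 96.3 and 128 to 20.1 and 10.4 and Pou5f1 from 267 and 180.4 to 79.4 and 59. Kit, the receptor that germ cells need to survive, was 1.98-fold lower (adjusted p = 0.00156). The E18.5 arrays lay below the E11.5 arrays for each of these genes.

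Genes of prospermatogonia and of the piRNA pathway, which silences transposons in male germ cells, were read as 1 list and went up. Of 19 tested members of this joint list 15 rose, none fell, and the median log2 change was 2.09. Of those 15, 9 had an E11.5 mean under the filter level, which cannot be told from background. Mael went from 9.1 and 28.1 to 1431 and 1163 (39.3-fold, adjusted p = 5.04e-09). Piwil4, a PIWI protein of fetal prospermatogonia, went from 3.7 and 0.4 to 209.9 and 115, and Piwil2 from 46 and 43.9 to 229 and 257 (adjusted p = 9.53e-07 and 7.01e-07). Tdrd9, a helicase of the pathway, read 16.4 and 24.1 and then 365 and 367 (10.6-fold). Dnmt3l, the cofactor of new DNA methylation in prospermatogonia, went from 7.8 and 11.9 to 231 and 169 (8.28-fold, adjusted p = 8.73e-06). Of the 4 tested markers listed for germ cells as a whole, 2 rose and 2 fell, the falls being the pluripotency genes Pou5f1 and Dppa3. Ddx4, the Vasa helicase, went from 77 and 149 to 757 and 565, and Dazl, an RNA-binding protein, from 103 and 195 to 925 and 1024 (5.41-fold and 6.25-fold).

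Among meiosis genes, 12 of 24 were under the filter. Of 11 tested, 8 rose and 1 fell (a call lost without E11.5 replicate 1, E18.5 replicate 1 or E18.5 replicate 2), and 6 of the 8 had an E11.5 mean under the filter level. Sycp3, a protein of the chromosome axis, reached 252 and 212 from 21.5 and 35.7, and Sycp2 reached 162 and 121 from 3.4 and 10.7 (adjusted p = 8.29e-07 and 1.59e-06). Stra8, which commits germ cells to meiosis, was not tested and stayed near background at 10.6 and 32.8 and 34.9 and 27.1, and so did Rec8, a meiotic cohesin, at 17.6 and 4.5 and 10.4 and 6.2.

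Genes of early embryonic growth fell. In the heterochronic group, named for timing genes such as Lin28, 7 of 10 tested members fell and none rose, with a median log2 change of -1.02, and 5 or 6 fell with 1 array left out. Hmga2, a chromatin protein of embryonic growth, went from 4287 and 5021 to 84.2 and 65.6 (51.5-fold lower, adjusted p = 2.43e-10). It was the largest fall outside the globins. Igf2bp1, an mRNA-binding protein, went from 399 and 352 to 44.8 and 82.1 (5.06-fold lower, adjusted p = 2.06e-06). Lin28a went from 53.4 and 84.4 to 27.6 and 23.7, a call lost without E11.5 replicate 2 or E18.5 replicate 2, and Lin28b was under the filter. In the other direction, 3 of the 4 nuclear factor I genes rose. Nfix went from 6.2 and 3 to 852 and 872 (42.7-fold, adjusted p = 2.43e-10), while Nfib, at 301 and 348 on E11.5 arrays, and Nfia, at 323 and 323, rose by 0.84 and 0.83 on the log2 scale, the latter call lost without E18.5 replicate 2. Nfic did not pass the test.

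DNA replication genes fell by small amounts. Of 42 tested S phase genes 22 fell and none rose, with a median log2 change of -0.61. This count depended on single arrays, with 7 falls without E11.5 replicate 1, 10 without E18.5 replicate 1, 14 without E18.5 replicate 2 and 25 without E11.5 replicate 2. Ccne1, the cyclin of S phase entry, went from 221 and 245 to 43.4 and 60.8 (3.68-fold lower, adjusted p = 3.98e-06). Mcm2, a subunit of the replicative helicase, went from 967 and 858 to 365 and 466 (2.16-fold lower, adjusted p = 0.000275), and Rrm2, a subunit of ribonucleotide reductase, from 2135 and 1715 to 726 and 923. Mcm7 read 3822 and 3703 and then 1768 and 2161, and Chaf1b, a histone chaperone at the fork, read 398 and 231 and then 118 and 141 (adjusted p = 0.000997 and 0.00257). Genes of G2 and M phase had a smaller median change, of -0.15. Of 46 tested 6 fell and 1 rose, but the falls numbered none without E11.5 replicate 1, 1 without E18.5 replicate 1, 3 without E18.5 replicate 2 and 10 without E11.5 replicate 2. The rise was lost without E11.5 replicate 1 or E18.5 replicate 2. Kif20a and Ccnb2 had the smallest adjusted p (0.00801 and 0.0103), with log2 changes of -0.75 and -0.69, both calls lost without E11.5 replicate 1 or E18.5 replicate 1.

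Promoters of these cell cycle families were searched for short sequences known from cell cycle genes, and those of 2 genes that fell are shown. GCGNGAA, an E2F-type site, was found on either strand of the 250 bases before the start for 14 of 36 S phase genes, for 5 of 39 G2 and M phase genes and for 2286 of all genes (8.46%). Among S phase genes it was present for 8 of the 18 that fell and 5 of the 15 that were not called. TTTGAA, the core of the CHR element, was found for 5 of 36 S phase genes, 15 of 39 G2 and M phase genes and 4934 of all genes (18.3%). CCAAT occurred for 23 of 36 and 30 of 39. Capitals in the next lines mark GCGNGAA, in stretches at chr5:138171884-138172133 (minus strand) for Mcm7 and chr16:93883651-93883900 (plus strand) for Chaf1b.
Mcm7: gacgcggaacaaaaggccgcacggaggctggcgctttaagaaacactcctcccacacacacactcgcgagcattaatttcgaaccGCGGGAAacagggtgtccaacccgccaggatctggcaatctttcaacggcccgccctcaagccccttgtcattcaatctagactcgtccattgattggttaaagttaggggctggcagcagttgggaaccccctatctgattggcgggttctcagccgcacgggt
Chaf1b: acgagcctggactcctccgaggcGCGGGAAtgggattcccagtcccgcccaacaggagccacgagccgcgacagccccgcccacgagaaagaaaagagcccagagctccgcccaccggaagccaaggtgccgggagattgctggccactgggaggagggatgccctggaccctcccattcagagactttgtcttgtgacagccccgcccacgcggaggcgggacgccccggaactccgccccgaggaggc

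Cyclins and inhibitors of the G1 phase moved both ways, with 4 of 14 tested rising and 4 falling. The inhibitor Cdkn1c, an imprinted gene, fell from 2419 and 2115 to 483 and 506 (4.46-fold, adjusted p = 1.23e-06), and Cdkn1a from 339 and 239 to 64.5 and 96.7. Cdkn2c, another inhibitor, rose from 45.8 and 55.7 to 271 and 325 (4.7-fold, adjusted p = 2.44e-06), and Rb1, the retinoblastoma protein, from 101 and 94.5 to 256 and 312. Of the D cyclins, Ccnd1 fell by 1.18 and Ccnd2 rose by 1.17 on the log2 scale.

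Imprinted genes and the insulin-like growth factor axis split as well. Of 24 tested imprinted genes 7 rose and 9 fell, and the median of -0.08 became 0.11 after quantile normalization. Igf2, the fetal growth factor, fell from 4612 and 5059 to 2404 and 2469 (adjusted p = 0.00061), and Peg3 from 5904 and 6497 to 2596 and 2703. Asb4 fell 13.3-fold, from 657 and 783 to 40.9 and 37.4. Dlk1, a membrane ligand of fetal tissue, rose from 930.2 and 1243 to 4058 and 5011 (adjusted p = 5.48e-05), and the noncoding Rian from 126 and 147 to 1606 and 1146, although its 4 probe sets ranged from 0.13 to 3.18 on the log2 scale. While Igf2 fell, Igf1 rose from 332 and 434 to 1930.4 and 2137 (5.18-fold, adjusted p = 3.6e-07). Igfbp7, Igfbp6 and Igfbp3, which bind these ligands, rose by 3.42, 2.93 and 1.18, the last call being lost without E11.5 replicate 1. Igfbp2 fell by 0.89.

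Housekeeping families differed in their share of falls. Of 46 tested proteasome subunits 18 fell and none rose (median -0.49), and the falls numbered 9 without E11.5 replicate 1, 8 without E18.5 replicate 1 or E18.5 replicate 2 and 25 without E11.5 replicate 2. Psmc4, an ATPase of the regulatory particle, went from 1054 and 1194 to 438 and 477 (2.4-fold lower, adjusted p = 0.000108). Of 46 translation initiation factors 13 fell and 2 rose (median -0.37), with 7 falls and no rise without E11.5 replicate 1, 5 falls without E18.5 replicate 1 and 7 without E18.5 replicate 2. Among the falls, Eif4a1 went from 6011 and 5035 to 3111 and 3186. Of 29 hnRNP and SR splicing factors 7 fell and none rose (median -0.28), with 1 fall without E18.5 replicate 1. After quantile normalization 4 of them fell and the median was -0.04. Of 82 oxidative phosphorylation subunits 11 fell and 2 rose, a share of falls near the background of 11.0%, and the falls numbered 2 without E11.5 replicate 1 or E18.5 replicate 2, 3 without E18.5 replicate 1 and 38 without E11.5 replicate 2. They numbered 5 after quantile normalization, and 1 of the rises was lost without E18.5 replicate 1. For 44 cytosolic ribosomal proteins, 5 fell and 1 rose, with 1 or 2 falls without E11.5 replicate 1, E18.5 replicate 1 or E18.5 replicate 2 and 10 without E11.5 replicate 2. Their median of -0.28 depended on scaling and was 0.02 after quantile normalization, so no direction is given for this family. Of 19 glycolysis genes 5 fell and 2 rose, with 3 falls without E11.5 replicate 1 or E18.5 replicate 2 and 2 without E18.5 replicate 1. Only 1 rose without E11.5 replicate 2, E18.5 replicate 1 or E18.5 replicate 2, or after centring. Ldhb, a lactate dehydrogenase subunit among the falls, went from 4674 and 4687 to 1011 and 1558 (3.69-fold lower, adjusted p = 3.97e-05).

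Histone modifiers gave 6 rises and 6 falls among 41 tested, with 3 falls without E11.5 replicate 1 and none without E18.5 replicate 1. Within the Polycomb group the methyltransferases diverged. Ezh1 rose from 90.4 and 84.6 to 286 and 223 (adjusted p = 5.45e-05) and Ezh2 fell from 1158 and 959 to 594 and 686 (adjusted p = 0.008), the latter call lost without E11.5 replicate 1 or E18.5 replicate 1. In the DNA methylation group 2 of 14 rose and 2 fell (1 rise and 1 fall without E11.5 replicate 1), with Uhrf1, which guides maintenance methylation, falling by 1.01, a call lost without E18.5 replicate 1, as was the other fall.

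Extracellular matrix families held many rises. Of 30 tested collagens 22 rose and none fell, against 17.1% and 11.0% of all tested genes, with a median log2 change of 1.32. With 1 array left out the rises numbered 18 to 24, and 4 of the 22 had an E11.5 mean under the filter level. Col6a2, a chain of the beaded-filament collagen, went from 259 and 235 to 4753 and 3917 (a log2 change of 4.04, adjusted p = 1.45e-09). Its partner chains Col6a1 and Col6a3 rose 16.2-fold and 6.85-fold. Fibrillar collagens rose from signals already above the filter level. Col1a2 went from 1111 and 1136 to 4804 and 4803 (adjusted p = 2.13e-06), Col1a1 from 284 and 449 to 2059 and 2201, and Col3a1 from 2427 and 2642 to 6109 and 6248. Col4a4, a basement membrane chain, went from 2.1 and 3.4 to 560.4 and 764 (35.8-fold, adjusted p = 3.09e-08).

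Small leucine-rich proteoglycans, which decorate collagen fibrils, rose in 6 of 7 tested members with a median of 3.03. Ogn, osteoglycin, went from 3.8 and 17.7 to 1936 and 1432 (65.1-fold, adjusted p = 7.14e-10). Dcn, decorin, went from 524 and 425 to 4211 and 3755 (8.19-fold, adjusted p = 2.74e-08), and Bgn, biglycan, from 250.3 and 283 to 2385 and 2687 (9.04-fold). Aspn, asporin, reached 553 and 394 from 3.8 and 0.7. Fmod was the weakest call, with a log2 change of 0.84 that lost its call without E11.5 replicate 2, E18.5 replicate 1 or E18.5 replicate 2.

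Elastic fibre and microfibril genes rose in 11 of 16 tested members, and 1 fell (median 1.48). Mfap4 went from 33.7 and 4.5 to 1444 and 2015 (53.9-fold, adjusted p = 3.52e-08), and its E11.5 arrays differed from each other at low signal. Eln, elastin, went from 46.4 and 114 to 756 and 997, and Lox, which crosslinks it, from 42.4 and 65.5 to 912 and 783 (log2 changes of 3.29 and 3.64). Basement membrane genes rose in 11 of 20 tested members and none fell (median 0.88). This list overlaps the collagens, with Col4a4 the largest rise of both, and 4 of the 11 had an E11.5 mean under the filter level. Lama2, a laminin chain of muscle-type basement membrane, went from 34.8 and 62.3 to 661 and 901 (a log2 change of 3.64, adjusted p = 1.3e-07), and Nid1, nidogen, from 409 and 546 to 1400.0 and 1654. Of 18 matrix proteases and inhibitors 11 rose and none fell (7 rises without E18.5 replicate 2), led by Adamts5, a protease of proteoglycans, which went from 68.7 and 112 to 874 and 912 (8.72-fold, adjusted p = 5.44e-08). Itih5, an inter-alpha-trypsin inhibitor chain that binds hyaluronan-rich matrix, went from 19.4 and 22.9 to 2075 and 1847 (53.2-fold, adjusted p = 2.43e-10). Htra3, a secreted serine protease, rose by 5.04 on its brightest probe set, but its other probe set read -0.07.

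Among 11 integrins 3 rose and 1 fell. Itgb8 went from 31.6 and 61.9 to 634 and 516 (9.65-fold) and Itga8 from 567 and 758 to 161 and 125 (4.25-fold lower). Of 11 serpins 4 rose and 2 fell. Serpina5, protein C inhibitor, reached 469 and 684 from 19.3 and 4.7 (adjusted p = 4.73e-08), while Serpinb6b fell from 915 and 809 to 227 and 185 (adjusted p = 1.87e-06).

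On the list of smooth muscle and peritubular genes 8 of 14 tested members rose and 1 fell (median 1.22). The fall was the integrin Itga8, given above. Acta2, smooth muscle actin, went from 539.6 and 468 to 4317 and 4560.0 (8.58-fold, adjusted p = 4.92e-08). Tagln went from 106 and 93.2 to 981 and 772, Mylk, the myosin light chain kinase, from 159.5 and 242 to 1517 and 1084, and Myh11, the smooth muscle myosin, from 14.3 and 3 to 219 and 195. Pdlim3, an actinin-binding protein, had the largest rise of the group, from 8.1 and 29.3 to 2312 and 1692 (60.4-fold, adjusted p = 2.69e-09). Of 7 tested skeletal muscle genes 1 rose and 1 fell.

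Of 19 tested endothelial genes 4 rose and 2 fell, close to the background shares, and the rises numbered 2 without E11.5 replicate 1 or E18.5 replicate 2 and 7 without E11.5 replicate 2. Pecam1, an adhesion molecule of all endothelium, read 115 and 232 and then 151 and 197, with overlapping stages (adjusted p = 0.894). Plvap, a protein of fenestrated vessels, fell from 221 and 173 to 46.9 and 50.7 (adjusted p = 0.000106), and Vwf, von Willebrand factor, rose from 20.8 and 22.5 to 80.5 and 115 (adjusted p = 0.00162). Of 15 macrophage and leukocyte genes 3 rose and none fell, and 1 rose without E18.5 replicate 1. Csf1r, the receptor of macrophage growth factor, had overlapping stages at 364 and 257 and 395 and 360.1 (adjusted p = 0.258). Of 12 genes of antigen presentation 6 rose and 1 fell (3 rises without E18.5 replicate 1, no fall without E18.5 replicate 2), with H2-K1 going from 84 and 66.7 to 225 and 255 on 1 of 3 probe sets that ranged from -0.36 to 1.49 on the log2 scale.

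The largest falls of all were the 3 embryonic globins, made by primitive red cells of the yolk sac. Hbb-y went from 11807 and 12471 to 81 and 24.2, Hbb-bh1 from 7595 and 5739 to 24.8 and 3.8 and Hba-x from 7991 and 5549 to 26.5 and 4. The folds were 195, 233 and 229 (adjusted p = 1.02e-09, 2.43e-10 and 6.49e-10). At E18.5 the last pair were under the filter level on both arrays. Hbb-b2, an adult beta globin, rose from 29 and 15.9 to 525 and 373 (12.1-fold, adjusted p = 5.95e-08). Its 2 probe sets read 1.24 and 3.60 on the log2 scale, and adult beta globin genes are nearly identical in sequence, so the value may hold more than 1 of them. Other genes of red cells were read beside the globins. Slc4a1, the anion exchanger of the red cell membrane, fell from 399 and 226 to 51.9 and 45.4, and Alas2, the first enzyme of haem synthesis in red cells, read 144.5 and 162 and then 223 and 195 (adjusted p = 0.136). The erythroid markers (5 of 6 with a probe set) summed to 27544 and 23931 at E11.5 and 362 and 229 at E18.5. The 3 embryonic globins made up most of the E11.5 sums, so the difference is mainly theirs and does not measure red cell number. The part of blood content in these values was not tested.

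Complement and coagulation genes were called in all 9 tested members, with 8 rising and 1 falling, though the rises numbered 4 without E11.5 replicate 1 or E18.5 replicate 1 and 5 without E18.5 replicate 2 or after centring. Thbd, thrombomodulin, went from 134 and 172 to 824 and 1108 (5.79-fold, adjusted p = 4.58e-07), and C1ra, a protease of the first complement complex, from 1.6 and 11.1 to 149.9 and 221. Plat, tissue plasminogen activator, fell from 695 and 721 to 155 and 130.4 (4.58-fold, adjusted p = 2.88e-07). In the S100 and annexin family 8 of 14 tested rose and none fell (6 to 8 with 1 array left out), led by S100a6 (121 and 109.5 to 886 and 859) and Anxa1 (135 and 69.9 to 929.8 and 709.6).

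Genes best known from liver also rose. Afp, alpha-fetoprotein, went from 9.2 and 21.5 to 1075 and 959 (33.5-fold, adjusted p = 1.04e-06), and Alb, albumin, from 14.1 and 39.2 to 164 and 261 (adjusted p = 0.000157). The 4 hepatocyte markers summed to 30.6 and 84.9 at E11.5 and 1325 and 1367 at E18.5, and Afp made up most of the late sums. Apoa1 and Ttr, the other markers, were under the filter, at 33.9 and 54 and 52.1 and 93.9 at E18.5. Whether liver tissue contributed was not tested. Hao2, a peroxisomal hydroxy acid oxidase, had the largest rise after Cyp17a1, from 1.7 and 10.6 to 1701 and 1312 (69.6-fold, adjusted p = 6.49e-10).

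Signalling pathways changed member by member. In the hedgehog pathway, the signal from Sertoli to interstitial cells, 7 of 14 tested genes rose and 1 fell, and the call of the fall was lost whichever 1 of the 4 arrays was left out. The ligand Dhh is given above. Ptch1, its receptor and a target of the pathway, went from 276 and 281 to 1432 and 1746 (5.42-fold, adjusted p = 1.57e-07). Further direct targets rose. Gli1 went from 29.4 and 52.7 to 217 and 299 (adjusted p = 2.37e-05), and Hhip, a decoy receptor, from 3.1 and 2.3 to 173 and 216 (adjusted p = 1.32e-07).

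Of 35 tested Wnt pathway genes 12 fell and 5 rose (2 rises without E11.5 replicate 1 or E18.5 replicate 1, 3 without E18.5 replicate 2 or after centring). Their median of -0.08 became 0.08 with the stricter filter, so no direction is given for the pathway. Lef1, a transcription factor of the pathway, fell from 304 and 213 to 40 and 46.5 (4.57-fold, adjusted p = 3.36e-06), and Lgr4, an R-spondin receptor, from 2919 and 2971 to 1173 and 909.9. The secreted antagonists diverged. Sfrp2 fell from 257 and 261 to 68.4 and 62.1 (adjusted p = 3.61e-05) and Sfrp1 rose from 443 and 560.2 to 924 and 1183 (adjusted p = 0.000717), with probe sets of Sfrp1 from -0.07 to 1.39 on the log2 scale.

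Of 42 BMP and TGF-beta genes 13 rose and 10 fell. Genes that BMP signals induce were among the falls. Id2 went from 1318 and 1299 to 503 and 411, Id3 from 970.4 and 796 to 374 and 405 and Smad6, an inhibitory Smad, from 316 and 274 to 115 and 107 (adjusted p = 0.000102, 0.000167 and 0.000113). Tgfbr3, a co-receptor that binds inhibin, rose from 187 and 283 to 636 and 629.9. In FGF and PDGF signalling 8 of 21 tested rose and 6 fell, with 5 rises without E11.5 replicate 1 or after centring, 4 without E18.5 replicate 1, and 3 falls without E11.5 replicate 2 or E18.5 replicate 1. The receptor Pdgfra, present on interstitial cells, rose from 672 and 923 to 2424 and 2451 (adjusted p = 1.35e-05), the ligand Pdgfa rose 2.42-fold, and the ligand Pdgfc fell from 1336 and 1319 to 400.0 and 271 (adjusted p = 4.43e-05).

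In the Notch pathway 4 of 16 tested rose and 1 fell. Jag1, a ligand, rose from 74.5 and 129 to 604 and 536 (adjusted p = 5.83e-06), and the target Heyl from 67 and 87.1 to 181 and 245, while the target Hey1 fell from 309 and 293 to 101 and 86.1 (adjusted p = 1.52e-05). Retinoic acid enzymes moved in opposite directions. Aldh1a2 fell from 1085 and 731 to 239.5 and 208 and Aldh1a1 rose from 948 and 689 to 4224 and 4715 (adjusted p = 7.63e-06 and 5.95e-07). Crabp2, a carrier of retinoic acid, fell 5.72-fold. In all, 2 of 14 genes of this pathway rose and 3 fell. Adh1, an alcohol dehydrogenase, rose from 116 and 187 to 3388 and 3193 (20.2-fold, adjusted p = 5.71e-08).

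Guidance molecules changed in both directions, with 13 of 50 tested semaphorin, ephrin and axon guidance genes rising and 9 falling (4 falls without E11.5 replicate 1, 5 without E18.5 replicate 1). Epha3, an ephrin receptor, reached 368 and 300.3 on the E18.5 arrays, from signals under the filter level (7.65-fold, adjusted p = 4.65e-07), and Sema3a, a secreted repellent, fell from 247 and 217 to 102 and 72.1 (adjusted p = 0.000129).

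Genes of transport, metabolism and cell contact were read the same way. Of 170 tested solute carriers 43 rose and 15 fell, but 22 rose without E11.5 replicate 1 and 18 without E18.5 replicate 2, and 7 fell without E18.5 replicate 1. Slc26a7, an anion exchanger, rose from 7.4 and 40.1 to 324 and 323 (9.36-fold, adjusted p = 2.77e-06), and Slc38a5, an amino acid transporter, from 23.5 and 28.2 to 302 and 444 (adjusted p = 1.53e-07). Slc25a31, a mitochondrial ADP and ATP carrier of germ cells, went from 56 and 56.9 to 626 and 474, and Slc38a4, an imprinted amino acid transporter, fell from 711 and 661 to 248 and 293. Among cytochromes P450, 56 of 70 members were under the filter, and of 14 tested 8 rose and 2 fell, with 5 rises without E11.5 replicate 1 or E18.5 replicate 1 and no fall without E11.5 replicate 2, E18.5 replicate 1 or E18.5 replicate 2. Of the 8 that rose, 6 had an E11.5 mean under the filter level. Outside the steroid enzymes, Cyp27a1, a sterol 27-hydroxylase, rose from 21.8 and 22.5 to 224 and 235 (6.42-fold, adjusted p = 2.19e-06).

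Cldn1, a tight junction protein, was the 1 rise among 5 tested claudins, from 4.3 and 3.2 to 198 and 159 (adjusted p = 1.25e-07). Of 15 cadherins and protocadherins 3 rose and 5 fell (3 without E11.5 replicate 2), with Cdh2, N-cadherin, going from 525 and 549 to 209 and 251 (adjusted p = 0.000229). Of 12 keratins 2 fell and none rose. These were Krt7, from 322 and 212 to 82.1 and 82.1, and Krt18, from 400.1 and 328 to 208 and 192, both keratins of simple epithelia (adjusted p = 9.76e-05 and 0.00207). Tubb6, a beta tubulin, rose from 119 and 68.9 to 382 and 524 (adjusted p = 9.49e-06), as 1 of 2 rises among 9 tubulins, of which 2 fell (1 without E11.5 replicate 1 or E18.5 replicate 1, none without E18.5 replicate 2, and 1 under either other scaling). On the mesonephric and duct list 2 of 8 tested genes rose and 2 fell (1 without E11.5 replicate 2 or E18.5 replicate 1). The rises were Osr2, from 3.3 and 22.2 to 213 and 221, and Osr1, from 31.2 and 3.8 to 179.9 and 155, zinc finger genes of intermediate mesoderm (adjusted p = 2.79e-06 and 9.55e-05). Of 3 tested neural and Schwann cell genes none was called.

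Transcription factor families differed in direction. Hox genes fell in 6 of 15 tested members and none rose (median -0.45), but 3 fell without E18.5 replicate 2. Hoxa9 went from 168 and 243 to 75.4 and 52.2 and Hoxc8 from 388 and 375 to 178 and 158 (adjusted p = 0.000412 and 0.00342). Sox genes fell in 6 of 13 and rose in 1, and 3 fell without E11.5 replicate 2 or E18.5 replicate 1. Sox11 went from 811 and 767 to 232 and 90.2 (adjusted p = 0.000131). Gata6, the only fall among 5 tested GATA and Fog genes, went from 915 and 658 to 346 and 368 (adjusted p = 0.000801), and 1 rose, a call lost without E18.5 replicate 2. Rhox genes, a reproductive homeobox cluster on the X chromosome, fell in all 3 tested members. Rhox5 went from 1216 and 960.0 to 183 and 104, Rhox6 from 287 and 252 to 15.4 and 6.3 and Rhox9 from 337 and 305 to 57.8 and 43.6 (adjusted p = 2.44e-06, 9.1e-07 and 6.44e-06).

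Krüppel-like factors went up instead, with 7 of 14 tested rising and none falling (median 0.68), and the rises numbered 7 with any 1 of the 4 arrays left out. Of these 7, 3 had an E11.5 mean under the filter level. Klf4 went from 38.8 and 39.1 to 177 and 272 and Klf6 from 94.1 and 119 to 285 and 378 (adjusted p = 1.1e-05 and 0.000119). Of 19 nuclear receptors 6 rose and 3 fell. Esr1, oestrogen receptor alpha, rose from 48 and 48.3 to 226 and 230.1 (adjusted p = 4.82e-06), Thra, a thyroid hormone receptor, from 266 and 319 to 799 and 843, and Nr3c1, the glucocorticoid receptor, from 60.4 and 94.9 to 280.0 and 313. Nr2f1 fell from 354 and 459 to 60.3 and 67.1 (adjusted p = 2.87e-07). Forkhead genes rose in 6 of 18 tested members and fell in 3, and 2 rose without E11.5 replicate 1 or E18.5 replicate 2. Foxs1 reached 196 and 319 from 7.2 and 9.2 (adjusted p = 1.67e-07), and Foxc1 fell from 203 and 237 to 46 and 47.8 (adjusted p = 0.00011).

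Several of the largest falls belonged to no family above. Dclk1, a microtubule-associated kinase, went from 1362 and 1176 to 39.8 and 62.4 (19.4-fold lower, adjusted p = 3.28e-09). Podxl, the podocalyxin of podocytes and coelomic-type epithelia, went from 2022 and 1504 to 143 and 159 (10.5-fold lower, adjusted p = 2.15e-08). Cpa1, known as a pancreatic carboxypeptidase, went from 492 and 796 to 36.2 and 41.8, Lor, loricrin of the skin barrier, from 1239 and 888 to 69.2 and 86.7, and Gbp2, an interferon-induced GTPase, from 841 and 622 to 56.1 and 50.5. Snx31 and Shisa3 ended under the filter level, at 28.5 and 36.2 and 23.8 and 15.2, after 426 and 497 and 187 and 409. These genes were picked among called genes whose stages did not overlap, so their separation was fixed by that rule.

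The path between the ends was read from the 3 middle stages, whose arrays were scanned on other days, so stage and day cannot be told apart for them. Fluidics modules 1 and 2 processed the arrays of E11.5, E12.5 and E14.5, and modules 3 and 4 those of E16.5 and E18.5. At the step from E14.5 to E16.5, module and stage therefore cannot be told apart either. For each called gene the first stage at or beyond the midpoint of its net log2 change was noted. Among the 1871 genes that rose it was E12.5 for 341 (18.2%), E14.5 for 770 (41.2%), E16.5 for 723 (38.6%) and E18.5 for 37 (1.98%). Among the 1205 that fell the numbers were 242, 515, 402 and 46. Of the 8 steroid synthesis genes that rose, the first such stage was E12.5 for 1 and E14.5 for 7. For the 22 collagens that rose it was E12.5 for 3, E14.5 for 16 and E16.5 for 3. For the 15 Sertoli genes that rose it was E12.5 for 6, E14.5 for 2, E16.5 for 6 and E18.5 for 1. Of the 11 pluripotency genes that fell, 8 first passed the midpoint at E16.5 and 1 at each other stage. Of the 22 S phase genes that fell, 14 first passed it at E14.5 and 8 at E16.5.

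Some genes passed beyond both ends in between. A middle stage lay above both ends by more than 1 on the log2 scale for 12 genes that rose and 2 that fell, and below both ends for 5 and 2. Dppa3 was 1 of them, with a mean signal of 1878 at E14.5 against 652 at E11.5 and 65.05 at E18.5. Cyp17a1 had its highest mean at E16.5, at 6156, and Star likewise, at 1181. For Cyp17a1 and Star the net change to E18.5 is smaller than the change to E16.5, whose arrays belong to another scan day.

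**Figure D5:**
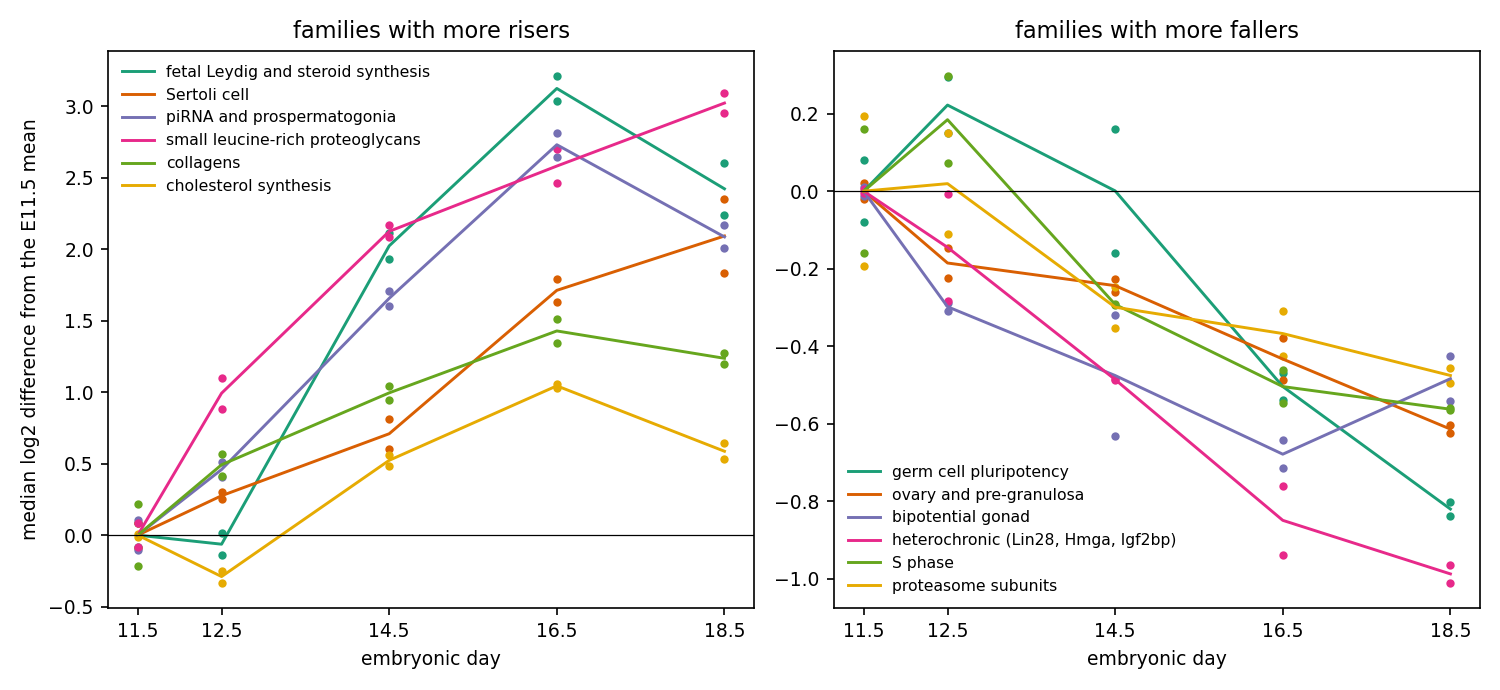
The median log2 difference from the E11.5 mean over the tested members of a family is plotted against embryonic day, with 1 point per array and a line through the stage means. Steroid, piRNA, collagen and cholesterol medians are highest at E16.5 and the proteoglycan and Sertoli medians at E18.5, while the families shown on the right lie below 0 on both E18.5 arrays.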

How the data were processed

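The authors deposited 1 linear signal intensity per probe set and array, and per the labels the RNA was total RNA extracted with Trizol and labelled with biotin in a single-cycle protocol. Per the file headers each array had 45101 probe sets, while the software that computed the signals, like its scaling target, is not stated in these headers or labels. The files hold no detection calls, so the number of arrays and the low end of the signal limit the precision.

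Of the 45101 probe sets, 34945 had 1 gene symbol in the platform annotation, 932 had several, 9160 had none and 64 were controls. Symbols were updated to RefSeq (GRCm38.p6), with 34741 matched through the Entrez gene ID, 1 through the accession and 203 kept as annotated. Each gene was represented by its probe set with the highest mean, which was kept for the test if it exceeded the 40th percentile. Signals were set to log2(signal + 16). All 10 arrays were fitted with limma 3.58.1 in R 4.3.3 (lmFit and eBayes with a trend, 5 residual and 8.59 prior degrees of freedom), and the E18.5 minus E11.5 contrast was adjusted by Benjamini-Hochberg over 10916 genes with a threshold of 0.05. The script was tested on simulated data. Tables and figures were made in Python 3.11.15 with pandas 2.3.3 and matplotlib 3.10.9.

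Alternatives changed the pseudocount (1 or 64), the filter (none, or the 60th percentile), the normalization, the probe set rule, the variance trend, the blocks and the arrays used. Members and lists were chosen with earlier results of these data known. Genes were named from the 15 largest rises and the 15 largest falls among called genes whose stages did not overlap, without clone or predicted gene names. Others came from the families (up to 6 members with the smallest adjusted p, and others where a family's count is given) and from a fixed panel of gonad genes. Motifs were searched in RefSeq promoter sequences.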

Additional observations from a re-analysis of the deposited data

How the results depend on the processing

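The count of 3076 changed genes was within 1.5 times of itself under every alternative that kept all arrays of the contrast, and lowest at 2206 (1214 higher) with the stricter filter, which tested 7277 genes. It was 2603 after median centring (1391 higher, 1212 lower), which moved the median of all tested genes from 0.02 to -0.08. After quantile normalization it was 2927 (1719 higher, 1208 lower). It was 2559 from the 4 arrays of the shared scan day alone and 3112 with the fluidics module as a random block (correlation 0.148). E11.5 and E18.5 share no module, so this block cannot separate module from stage, and its count is no test of a module effect. With 1 of the 4 arrays left out, which leaves a lone array assumed to vary like the other stages, the counts ranged from 1943 to 3291 changed, 1199 to 1930 higher and 642 to 1361 lower. Of these, 1961 were changed without E11.5 replicate 1, 1991 without E18.5 replicate 1, 1943 without E18.5 replicate 2 and 3291 without E11.5 replicate 2. A replicate block gave 3564 genes, but the labels tie the numbers to nothing, and deviations of same-numbered E11.5 and E18.5 arrays correlated with r = 0.00444. Over all stage pairs r ran from 0.00444 to 0.366, positive in each of 10, which is only a hint from the data. The numbers did go with fluidics modules, number 1 with module 1 or 3 and number 2 with module 2 or 4. Among stages that share modules, r was 0.363 for E11.5 and E12.5 and 0.366 for E16.5 and E18.5. It was 0.0445 and 0.157 for E14.5 with E11.5 and E12.5, and at most 0.172 between stages on different modules. The part of the module was not tested. Some family medians larger than their spread between arrays changed sign. With quantile normalization that of ribosomal proteins was 0.0168, with the mean of probe sets those of aldehyde and alcohol dehydrogenases and nuclear receptors were -0.0211 and -0.0375, without a filter that of nuclear receptors was -0.0710, and with the stricter filter those of Wnt, forkhead and claudin genes were 0.0840, 0.41 and -0.0538. Medians within that spread carry no direction, and in quantile normalized data those of imprinted, histone modifier, skeletal muscle, macrophage, red cell and cadherin genes became 0.110, 0.0191, -0.0679, -0.0655, -0.0363 and -0.0279, while centring also turned the last 4 of these below 0, and that of BMP and TGF-beta genes to -0.0676. The causes were not tested. Among named genes the sign changed only for some that were not called. The log2 differences were -0.0418 for Csf1r and -0.16 for Nr5a1 with the mean of probe sets, -0.0349 for Pecam1 after centring, and -0.0234 for Pecam1, 0.103 for Cyb5a and 0.0810 for Tcf21 after quantile normalization. With 1 array left out they ranged from -0.263 to 0.0978 for Cyb5a, -0.59 to 0.943 for Nfic, -0.395 to 0.521 for Pecam1 and -0.371 to 0.0597 for Tcf21. Counting each named gene under each setting, calls were lost 12 times with all arrays kept and 25 times with 1 left out. Signals near background, with no detection calls, limit the folds of the 424 risers that began, and the 103 fallers that ended, under the filter level.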
